A study of Rattus norvegicus with 39 samples.

Results

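Estrous stage was compared in nucleus accumbens (NAc) D2 neurons of saline-treated female rats, using the 10 immunoprecipitation (IP) libraries, of 39 in the series, that the sample titles place in D2-Cre, saline and either proestrus or diestrus. The groups were libraries 5, 13, 21, 29 and 37 from proestrus rats and libraries 7, 15, 23, 31 and 39 from diestrus rats (n = 5 and 5), each library coming from the tissue punches of 1 rat and carrying the number that ends its title. The comparison asks whether the cycle alone, with no drug given, shifts which mRNAs are on polyribosomes in these cells.

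Every rat of both groups was an adult Long-Evans female heterozygous for Drd2-iCre, a transgene in which Drd2 regulatory sequence drives Cre recombinase. All had received a Cre-dependent virus in the NAc on both sides that makes cells with Cre produce the ribosomal protein Rpl22 with an HA tag, together with EYFP, so that an antibody to HA pulls down ribosomes of infected cells with the mRNA they carry (RiboTag). The rats were injected 6 times with saline while in their assigned stage, and 4 days after the last injection they spent 30 min in the test chamber without drug before the tissue was taken. Stage was read from vaginal smears. The groups therefore share the transgene, the virus, the injections and the chamber, and differ in stage. As a model the line is limited to the cells that express Drd2 and took up the virus, which in the NAc can include cholinergic interneurons beside the D2 medium spiny neurons (D2-MSNs). Each rat was a separate animal, so the spread within a group is between animals.

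The rodent cycle lasts a few days. Estradiol climbs to its peak in proestrus, with progesterone following, and both are lower through most of diestrus. D2-MSNs are GABA neurons of the indirect pathway that carry the dopamine D2 receptor, the adenosine A2A receptor and enkephalin, and estradiol is known to act on the striatum through membrane and nuclear receptors, on dopamine release as well as on the spiny neurons themselves.

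Depth and purity were looked at before any gene. In the proestrus libraries the total count was between 17320637 and 22870510. In diestrus, 4 libraries had between 21011366 and 22271752, and library 39 had 2396517, so that 1 count there equals 0.414 CPM (counts scaled to a common library total). Results are given with library 39 and, where this moves them, without it. Library 39 also had a count above 0 for 13814 genes, against 15828 to 16108 in the other 9. The D2 label was checked with Adora2a, which encodes the A2A receptor and was the one marker of the D2-MSN list that could be looked up by symbol. It stood at 776 to 1056 normalized CPM in these 10 libraries and at 149 to 209 in the 10 saline libraries of D1-Cre rats. Drd2 and Penk, like most genes, could not be paired with their identifiers, since symbols were at hand for 1966 of 23978 identifiers, and 1510 of those were tested. In the text, a normalized CPM is a level after scaling by the trimmed mean of M values (TMM), and every fold change is a fitted log2 difference of proestrus minus diestrus.

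Libraries 7 and 21, one from each stage, stood apart from the rest in markers of other cells. The 4 astrocyte markers that could be looked up (Gfap, Gja1, S100b and Sox9) summed to 241 CPM in library 7 and 213 in library 21, and to between 119 and 142 in the other 8. Gfap, the astrocyte intermediate filament, stood at 60.1 CPM in library 7 and 38.1 in library 21, against 16.7 to 29.3 elsewhere. Mog, a myelin protein of oligodendrocytes, stood at 15.5 and 16.1 CPM in libraries 7 and 21 and at 6.82 to 9.19 CPM in the others. The 4 vascular and fibroblast markers (Flt1, Rgs5, Col1a1 and Col3a1) summed to 32.4 and 23.7 CPM, against 7.30 to 12.9. Since 1 of the 2 libraries lies in each group, these levels overlapped between the stages. The 2 microglial markers, Aif1 and Tmem119, summed to 5.38 CPM at most, in library 39. Among interneuron markers, Sst (somatostatin) ranged from 64.6 to 274 CPM in proestrus and from 108 to 162 in diestrus, and from 250 to 763 in the D1-Cre libraries. In pulldown libraries of this kind, fewer cells of a type and less RNA per cell cannot be told apart, and the source of the marker mRNA was not tested.

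Some neuronal genes varied widely from rat to rat within each stage. Gabrb2, which encodes the beta-2 subunit of the GABA-A receptor, stood at 22.8, 49.3, 29.5, 20.8 and 57.8 CPM in proestrus libraries 5, 13, 21, 29 and 37, and at 11.7, 32.6, 38.2, 28.0 and 50.5 CPM in diestrus libraries 7, 15, 23, 31 and 39. Library 7 was the lowest of the 10 and library 21 lay near the middle, and the groups overlapped over almost their whole range. The receptor tyrosine kinase Kit, the ephrin receptor Epha5, the kinase Limk1 and Parm1 had their lowest 3 levels in libraries 7, 21 and 29 and were high in 13, 37 and 39, apart from Epha5, at 62.9 CPM in library 13. These genes were singled out after their values had been seen. The surrogate variables of the fit, which stand for variation that the stage does not explain, were carried by library 39 (the first, loading -0.94) and by libraries 7 and 21 (the second, 0.68 and 0.42).

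**Figure D1:**
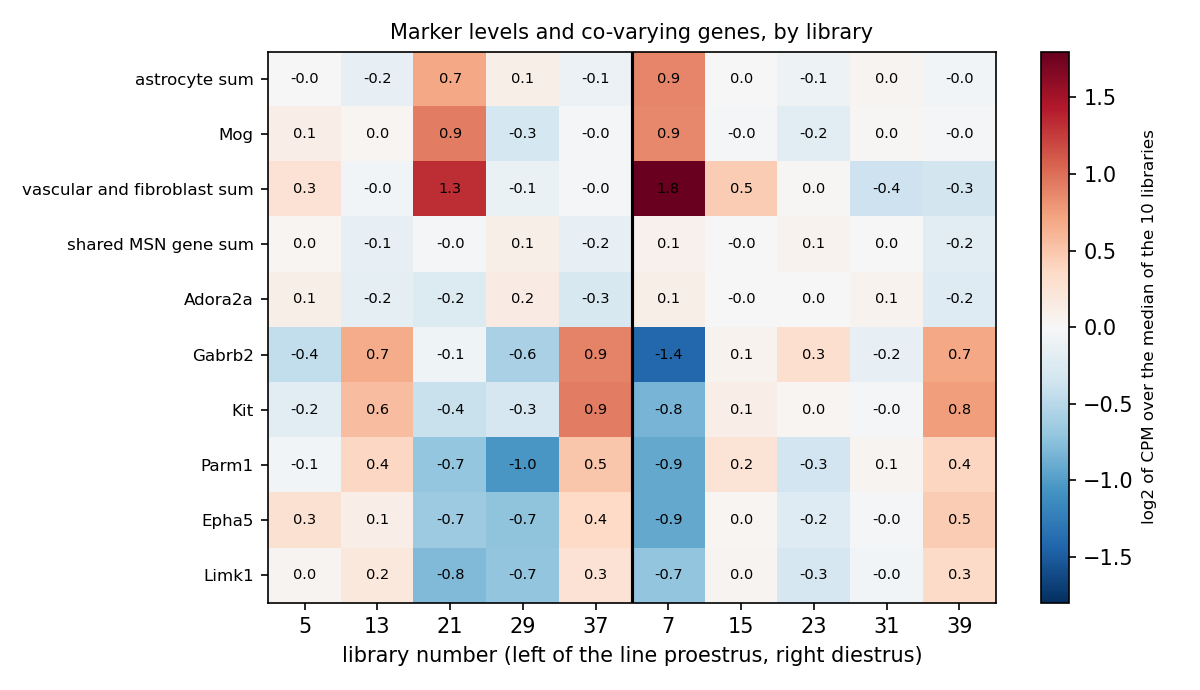
Heat map of marker sums and of single genes in the 10 saline D2 libraries, with library numbers on the x axis and proestrus left of the line; color and printed values give the log2 of the CPM over the median of the 10 libraries. Libraries 7 and 21 stand high in astrocyte and vascular sums and in Mog and low in Kit, Epha5 and Limk1, while Adora2a stays between 776 and 1056 CPM throughout.

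No gene was DE between proestrus and diestrus in saline D2 libraries. Of 13340 genes tested, 0 (0% of all tested) passed an adjusted p under 0.1 in edgeR's quasi-likelihood test, adjusted after Benjamini and Hochberg, where the lowest adjusted p was 0.987. An unadjusted p under 0.05 was reached by 340 genes with higher (2.55% of all tested) and 205 with lower values in proestrus (1.54%). DESeq2 with the same surrogate variables called 0 genes as well, with 392 at an unadjusted p under 0.05. Without library 39, edgeR called 0 of 13457 genes, with 674 at an unadjusted p under 0.05 (5.01%), 378 higher and 296 lower, and a lowest adjusted p of 0.907. The genes that follow were named by the smallest unadjusted p-values, by lists chosen with earlier results of these data known, or after their values were seen. None of them passed.

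How large a difference these 10 libraries still allow depends on the level of the gene. Over all tested genes the median size of the log2 fold change was 0.07 and the median standard error 0.09. For 10623 genes (79.6%) the 95% interval of the fold change lay within 1.5-fold in either direction, and for 12436 (93.2%) within 2-fold. Of the 2398 genes above 100 CPM, 99.3% had an interval within 1.5-fold, as did 97.1% of the 6619 genes between 10 and 100 CPM. The share was 51.9% for the 3483 genes between 1 and 10 CPM and 0.595% for the 840 genes below 1 CPM, where a 1.5-fold difference could go unseen. Without library 39 the share over all genes was 79.7%. As a scale, the comparison of D2 with D1 libraries, run the same way with 5 against 5 rats, called 718 of 13283 genes in proestrus (5.41%) and 546 of 13292 in diestrus (4.11%). Among the 9017 genes above 10 CPM, 41 and 44 of them differed by more than 1 log2 unit between cell types and 0 between stages, and the 95th percentile of the size was 0.36 and 0.34 on the log2 scale between cell types and 0.19 between stages.

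**Figure D2:**
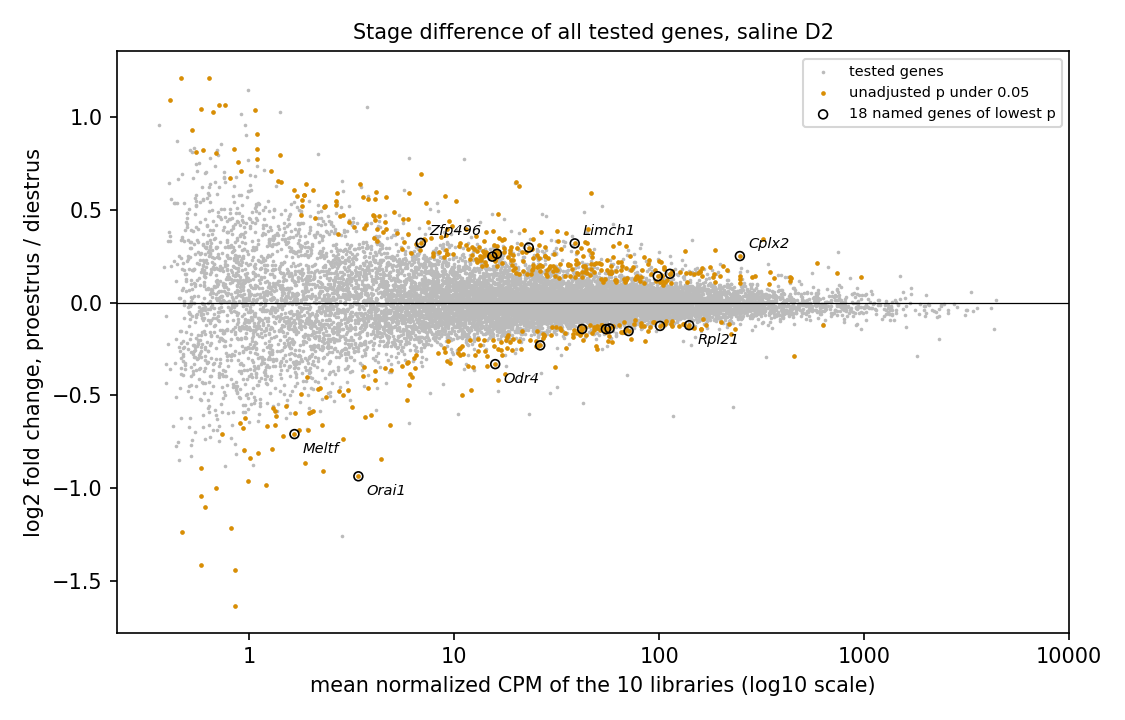
Each point is 1 of the 13340 tested genes, with the mean normalized CPM of the 10 libraries on a logarithmic x axis and the fitted log2 fold change of proestrus over diestrus on the y axis; orange marks an unadjusted p under 0.05 and circles the 18 named genes of lowest p. The spread narrows as the level rises, and no point passed the adjusted threshold.

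Zfp496, a zinc finger protein of the nucleus, was one of 2 genes with a symbol whose groups did not overlap with higher values in proestrus (17 of all 13340, or 0.127%, did so). It stood at 7.73, 7.37, 7.93, 8.10 and 6.90 CPM in proestrus and at 6.47, 5.77, 5.57, 6.73 and 6.21 CPM in diestrus. The gap between library 37, the lowest in proestrus, and library 31, the highest in diestrus, was smaller than the SD within either group (7.61 ± 0.483 and 6.15 ± 0.480 CPM, SD, n = 5 each). Its log2 fold change was 0.32 with a standard error of 0.11, and the adjusted p was 0.987 by edgeR. The 2-sided exact permutation test on the log2 CPM gave p = 0.00794, the smallest that 5 against 5 libraries can give. Any gene whose groups do not overlap gets this value, so it adds nothing to the lack of overlap. The other was Ulk2, a kinase that starts autophagy, chosen here after its values were seen. Ulk2 was 34.8 to 40.2 CPM in proestrus and 31.5 to 33.5 CPM in diestrus (log2 fold change 0.15, standard error 0.06).

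Lrrc8b, a subunit of volume-regulated anion channels, was 23.2, 22.2, 26.8, 25.5 and 27.4 CPM in proestrus and 21.1, 19.5, 23.1, 18.4 and 24.0 CPM in diestrus. Libraries 23 and 39 of diestrus lay within the proestrus range (log2 fold change 0.30, standard error 0.09). Fbxo28, a substrate receptor of a ubiquitin ligase, was 15.9 to 18.0 CPM in proestrus and 13.9 to 14.8 CPM in 4 diestrus libraries, with 17.8 CPM in library 39, where 43 counts stand behind it. Its log2 fold change was 0.26 with a standard error of 0.07 and an exact permutation p of 0.0397. Ankrd45 was 15.9, 17.8, 16.8, 16.8 and 16.8 CPM in proestrus and 10.9, 14.3, 16.5, 14.6 and 13.3 CPM in diestrus. Only library 23 of diestrus reached the proestrus range (log2 fold change 0.25, standard error 0.09).

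Cplx2, Opa1, Ncam2 and Limch1 were also among the genes of lowest p with higher proestrus values. Cplx2, a complexin that clamps and assists the vesicle fusion machinery, was 235, 277, 276, 235 and 308 CPM in proestrus and 177, 231, 255, 224 and 256 CPM in diestrus. The ranges overlapped, with a log2 fold change of 0.25 (standard error 0.09) and an exact permutation p of 0.103. Opa1, the dynamin-like GTPase of the inner mitochondrial membrane, was 109 to 134 CPM in proestrus and 101 to 113 CPM in diestrus (log2 fold change 0.16, standard error 0.06). For Ncam2, an adhesion molecule of axons, the log2 fold change was 0.14. Limch1, which binds non-muscle myosin, had one of the larger estimates (log2 fold change 0.32, standard error 0.10), but its highest level in each stage was in library 21 (53.8 CPM) and library 7 (48.0 CPM). The part of the other cells in those libraries in the Limch1 values was not tested. Across the alternatives its log2 fold change ran from 0.10, in the model that also holds the ketamine rats, to 0.38.

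**Figure D3:**
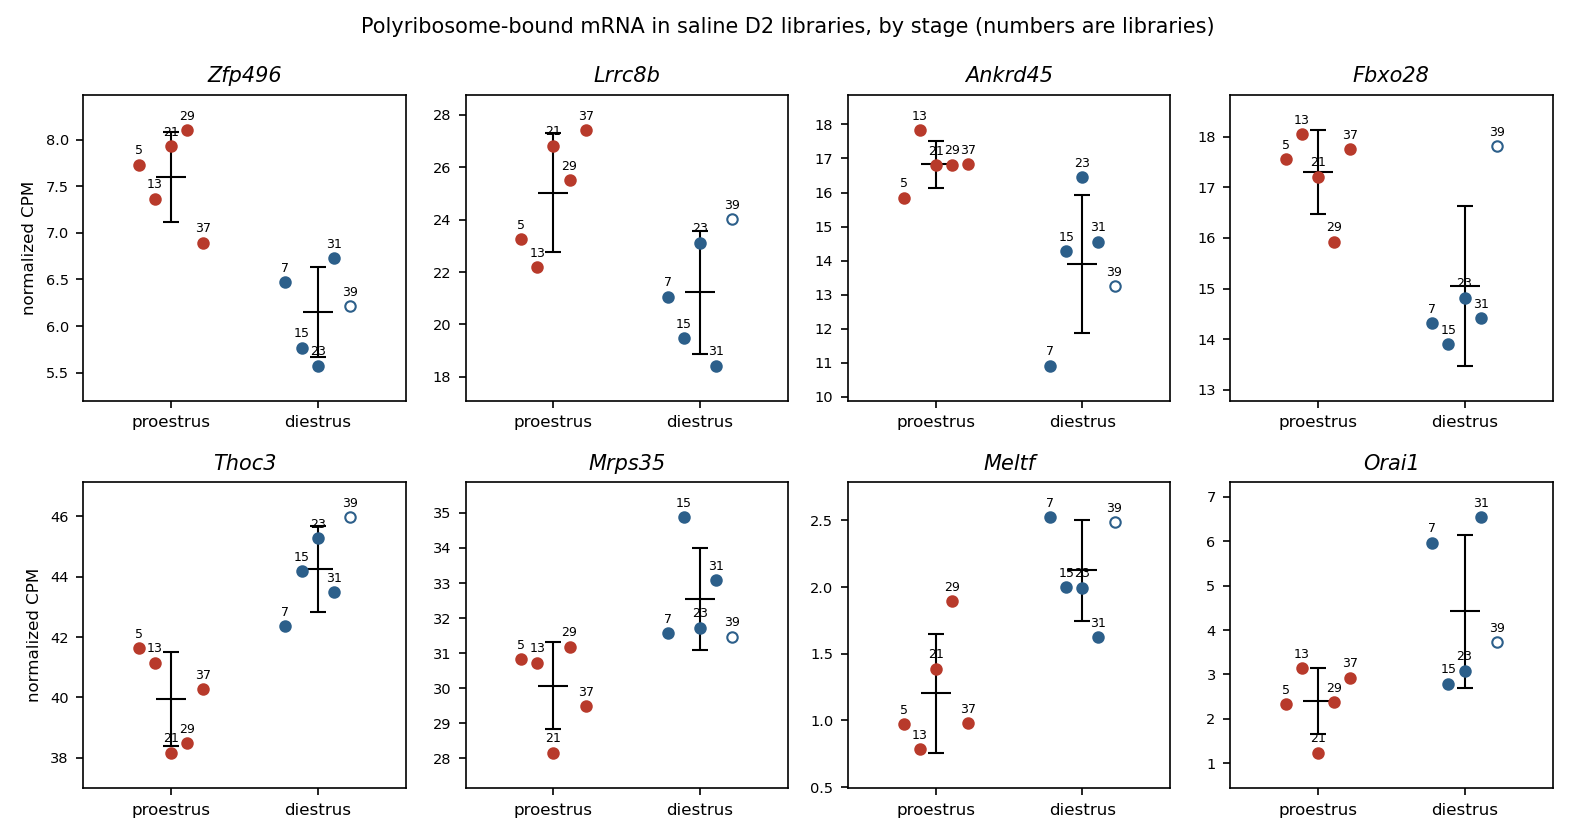
Normalized CPM of 8 genes in each saline D2 library (points, numbered by library, open for library 39), with the mean and the SD of each stage as bars; the y axes do not start at 0. Zfp496, Thoc3 and Mrps35 do not overlap between the stages, whereas in Lrrc8b, Ankrd45, Fbxo28, Meltf and Orai1 at least 1 library lies within the range of the other stage.

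Thoc3 was among the 3 genes with a symbol that did not overlap with lower values in proestrus (34 of all tested genes did, or 0.255%). It encodes a subunit of the THO complex, which couples transcription to mRNA export. The levels were 41.6, 41.1, 38.2, 38.5 and 40.3 CPM in proestrus and 42.3, 44.2, 45.3, 43.5 and 46.0 CPM in diestrus. The highest proestrus library, 5, and the lowest diestrus library, 7, were less than 1 CPM apart. The fitted log2 fold change was -0.14 with a standard error of 0.05. The exact permutation p was 0.00794, a value that the lack of overlap fixes. The other 2 were Mrps35, a protein of the mitochondrial ribosome, at 30.1 ± 1.25 CPM in proestrus and 32.5 ± 1.46 CPM in diestrus (SD, n = 5 each), and Gap43, a growth cone protein, at 403 to 422 CPM in proestrus and 426 to 444 CPM in diestrus. Gap43 was chosen after its values were seen, and its log2 fold change was only -0.05 with a standard error of 0.04. With all 10 libraries, 51 of 13340 genes did not overlap in either direction (0.382%). Without library 39, which leaves 4 libraries in diestrus, 128 of 13457 did not (0.951%). Smaller groups separate more easily by chance, so the rise does not show a clearer stage difference.

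The largest estimates with lower proestrus values were in genes of low level. Orai1, the pore of the calcium channel that opens when the stores of the endoplasmic reticulum run empty, was 2.33, 3.14, 1.24, 2.37 and 2.93 CPM in proestrus and 5.96, 2.79, 3.08, 6.54 and 3.73 CPM in diestrus. Libraries 7 and 31 stood apart, and of the other 3 in diestrus, library 39, with 9 counts, also lay above the proestrus range. Its log2 fold change was -0.94 with a standard error of 0.33, and the 95% interval ran from -1.67 to -0.20. Meltf, an iron-binding surface protein, was 0.972, 0.785, 1.39, 1.90 and 0.977 CPM in proestrus and 2.52, 2.00, 1.99, 1.62 and 2.48 CPM in diestrus, with 6 counts in library 39 (log2 fold change -0.71, standard error 0.25). Library 29 of proestrus overlapped with library 31 of diestrus.

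More abundant genes in that direction had small estimates. Rpl21, a protein of the large ribosomal subunit, was 129 to 139 CPM in proestrus and 147 to 154 CPM in 4 diestrus libraries, with 123 CPM in library 39 (log2 fold change -0.12, standard error 0.04). Genes for ribosomal proteins have many processed copies in the genome that can share reads, so this value is uncertain. Odr4, which helps receptors reach the membrane, was 13.5 to 15.6 CPM in proestrus and 16.1 to 22.2 CPM in 4 diestrus libraries, with 12.8 CPM in library 39 (log2 fold change -0.33, standard error 0.10). For Utp18, of the complex that processes ribosomal RNA, the log2 fold change was -0.23. The lysosomal channel Mcoln1, the protease Sppl3, the ubiquitin ligase Rnf5 and Pbdc1 had log2 fold changes of -0.14, -0.13, -0.15 and -0.14, all with overlapping groups.

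Without a symbol, ENSRNOG00000011358 had the next-lowest p after ENSRNOG00000048109, at 38.4, 40.5, 38.8, 34.9 and 42.9 CPM in proestrus and 24.6, 28.5, 35.2, 31.0 and 36.0 CPM in diestrus. Its log2 fold change was 0.37 with a standard error of 0.08 and lay between 0.31 and 0.45 under every alternative. ENSRNOG00000048109 had the lowest p (log2 fold change 0.55, standard error 0.11), but it was at 0 counts in library 39, where the limit that 0 counts allow is 1.24 CPM, against 8.67 to 10.6 CPM in the other diestrus libraries and 7.07 to 17.3 CPM in proestrus. Without library 39 its standard error was 0.17, and across the alternatives its log2 fold change ran from 0.23 to 0.79. With lower proestrus values, ENSRNOG00000019730 was 14.5 to 17.1 CPM in proestrus and 16.1 to 21.3 CPM in diestrus (log2 fold change -0.28, standard error 0.07). ENSRNOG00000010265 was at most 0.479 CPM in proestrus and at least 0.716 CPM in diestrus, except for 0.414 CPM in library 39 from 1 count (log2 fold change -1.41, standard error 0.33). Across the alternatives, ENSRNOG00000019730 ran from -0.30 to -0.15 and ENSRNOG00000010265 from -1.60 to -0.56.

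Genes tied to steroid signaling gave no call. Gper1, the membrane estrogen receptor, was the one receptor of the steroid list that could be looked up, and it was too low to test, with 0 to 5 counts in proestrus and 0 to 9 in diestrus libraries. Nrip1, a co-repressor induced by estrogen in many tissues, stood at 34.4, 29.1, 28.8, 30.4 and 30.5 CPM in proestrus and at 27.8, 29.0, 26.6, 27.6 and 25.3 CPM in diestrus. Only library 15 of diestrus reached the lowest proestrus libraries (log2 fold change 0.14, standard error 0.07, exact permutation p = 0.0159). Of 11 nuclear receptor co-regulators and Mediator subunits, 0 passed, 7 had positive and 4 negative estimates, and the median log2 fold change was 0.06, beside -0.0018 over all genes tested. Med13l and Med13 had estimates of 0.13 and 0.18. Cyp19a1, the aromatase that makes estradiol, was at 1.19 ± 0.387 CPM in proestrus and 0.890 ± 0.740 CPM in diestrus (SD, n = 5 each), a log2 fold change of 0.17 with a standard error of 0.30. Library 39 had 0 counts of it, and without that library the diestrus mean was 1.11 CPM and the log2 fold change 0.07 (standard error 0.35). For the 17-beta-hydroxysteroid dehydrogenases, which interconvert strong and weak sex steroids, Hsd17b8 stood at 32.9 and 32.7 CPM, Hsd17b10 at 23.4 and 25.1 CPM and Hsd17b11 at 9.39 and 8.99 CPM in proestrus and diestrus.

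Adora2a, the one D2-MSN marker that could be looked up, and the listed signaling genes gave no call. Adora2a was 1018, 849, 801, 1056 and 776 CPM in proestrus and 1023, 946, 955, 996 and 812 CPM in diestrus. The groups overlapped fully, with a log2 fold change of -0.12 and an interval from -0.33 to 0.09. Of 14 tested genes of adenosine, cAMP and G protein signaling, 0 passed, and all 14 intervals lay within 1.5-fold. Adcy5, the main adenylyl cyclase of striatal neurons, had a log2 fold change of -0.02 with an interval from -0.13 to 0.09. For Rgs9, a GTPase activator that shortens D2 receptor signaling, the values were 309 to 396 CPM in proestrus and 318 to 410 CPM in diestrus (log2 fold change -0.14, standard error 0.08).

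Among immediate early genes, which respond within minutes to neuronal activity, Egr2 and Nptx2 varied widely from rat to rat within a stage. Egr2 was 26.4, 30.7, 34.5, 29.4 and 12.6 CPM in proestrus and 14.5, 20.0, 21.9, 27.8 and 15.7 CPM in diestrus. Library 37 held the lowest value of all 10, so the groups overlapped (log2 fold change 0.34, standard error 0.30, exact permutation p = 0.246). Nptx2, a secreted pentraxin that gathers AMPA receptors at synapses, was 39.8, 20.8, 17.4, 30.3 and 13.1 CPM in proestrus and 10.6, 23.9, 21.8, 17.4 and 11.6 CPM in diestrus. Its log2 fold change of 0.38 had a standard error of 0.34, which was 0.11 without library 39 at the same estimate, with no adjusted p under 0.1 in either fit. Sik1 and Vgf had estimates of -0.08 and -0.05, and Btg2 one of -0.29 with a standard error of 0.24. Of the 5 that were tested, 2 had positive and 3 negative estimates.

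Among the genes of GABA transmission, 0 of 10 tested passed, with 7 positive and 3 negative estimates and a median log2 fold change of 0.04. Without libraries 7 and 21 the median was 0.01 with 6 of 10 positive, and in ketamine D2 rats it was -0.0054 with 4 of 10 positive. Gabra4, the alpha-4 subunit of GABA-A receptors outside the synapse, a subunit known to vary with progesterone metabolites, stood at 111, 101, 111, 114 and 103 CPM in proestrus. In diestrus it was 90.3, 94.2, 107, 98.8 and 105 CPM. The groups overlapped in libraries 23 and 39, and the log2 fold change was 0.14 with a standard error of 0.06. Abat, which degrades GABA, was 129 to 171 CPM and 105 to 166 CPM (log2 fold change 0.16, standard error 0.07), and Gad1, which makes it, had an estimate of -0.03 with an interval from -0.12 to 0.07. Gabbr1, of the GABA-B receptor, stood at 1451 ± 41.3 CPM in proestrus and 1470 ± 39.8 CPM in diestrus (SD, n = 5 each).

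Lists of mitochondrial genes leaned to lower and a list of vesicle genes to higher proestrus values, by small amounts and with no gene passing. All 10 tested genes of the respiratory chain had negative estimates, from -0.12 for Cox6a1 to -0.0038 for Atp5pf, with a median of -0.07, whereas 50.9% of all tested genes were negative, with a median of -0.0018. Their sum was 3010 to 3573 CPM in proestrus and 3314 to 3671 CPM in diestrus, and it was lowest in library 21. Atp5f1b, the beta subunit of ATP synthase, stood at 1949 ± 121 CPM in proestrus and 2027 ± 74.9 CPM in diestrus (SD, n = 5 each), a log2 fold change of -0.07 with a standard error of 0.05. Of 9 tested genes of the mitochondrial ribosome 8 were negative (median -0.09), among them Mrps18b at 33.3 to 41.5 CPM in proestrus and 40.6 to 45.1 CPM in diestrus. Their sum was 239 to 270 CPM in proestrus and 265 to 284 CPM in diestrus. Without libraries 7 and 21, the medians of these lists were -0.04 and -0.05, with 9 of 10 and 7 of 9 negative.

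For 14 tested vesicle and SNARE genes the median log2 fold change was 0.07, with 11 positive, and their sum ran from 910 to 1010 CPM in proestrus and from 825 to 948 CPM in diestrus. Without libraries 7 and 21 the median was 0.05, again with 11 positive. Stxbp5l, the tomosyn-2 that holds back vesicle fusion, was 28.5 to 41.8 CPM in proestrus and 18.4 to 36.9 CPM in diestrus (log2 fold change 0.33, standard error 0.15). Of 14 kinase genes 9 were positive, with a median of 0.03. Gsk3b, a kinase of the Wnt and insulin pathways, was 37.1 to 51.1 CPM in proestrus and 28.5 to 44.7 CPM in diestrus (log2 fold change 0.27, standard error 0.10). In several of these genes, Cplx2, Gsk3b, Stxbp5l and Abat among them, library 7 held the lowest value of diestrus and library 37 the highest of proestrus. Library 7 is one of the 2 that stood high in glial markers, and its part in these values was not tested beyond the fits that leave it out.

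**Figure D4:**
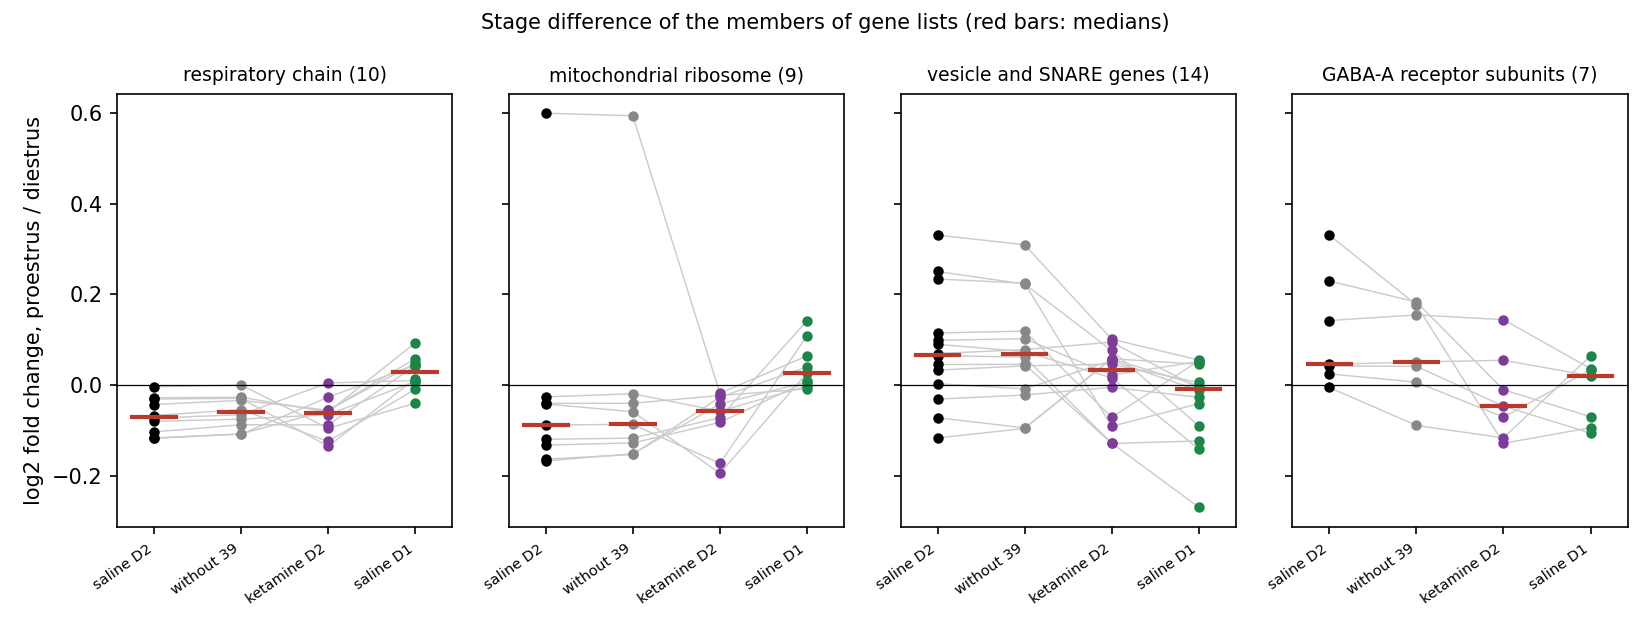
Fitted log2 fold changes of proestrus over diestrus for the tested members of 4 gene lists (points, joined per gene) in saline D2 with all 10 libraries, saline D2 without library 39, ketamine D2 and saline D1, with the median as a red bar. The 10 respiratory chain genes lie below 0 in both saline D2 fits, which share all libraries but 39. Their median is -0.07 in the fit of all 10 libraries, and most of them lie above 0 in saline D1.

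Markers of other cells did not separate the stages. Gfap was 16.7 to 38.1 CPM in proestrus and 17.8 to 60.1 CPM in diestrus, Mog 6.82 to 16.1 and 7.34 to 15.5 CPM, and Flt1, the VEGF receptor of endothelium, 4.25 to 9.87 and 2.90 to 11.7 CPM. Tmem119, a microglial membrane protein, showed how library 39 weighs on the mean of a low gene. Its means were 1.35 CPM in proestrus and 1.49 CPM in diestrus, because library 39 stood at 4.14 CPM from 10 counts, and the mean of the other 4 diestrus libraries was 0.822 CPM. The fitted log2 fold change, in a model whose first surrogate variable is carried by library 39, was 0.79 with a standard error of 0.30, and without library 39 it was 0.81 with a standard error of 0.31. Over all 10 libraries the exact permutation test, which weighs all libraries alike, gave p = 0.754.

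The same contrast was then read in rats that did not enter the fit. In saline D1 libraries (5 proestrus, 5 diestrus), 0 of 13183 genes passed edgeR's test and 522 had an unadjusted p under 0.05 (3.96%). In D2-Cre rats given 6 injections of ketamine at 10 mg/kg (4 proestrus, 5 diestrus, which the study chose among rats whose activity rose over treatment), the counts were 0 of 13595 and 469 (3.45%). The sets of rats are separate and share no control. Of the 543 genes with an unadjusted p under 0.05 in saline D2 that were also tested in ketamine D2, 388 (71.5%) had the same sign there, where 57.7% of all 13292 genes tested in both did. In saline D1 the share was 44.6% of 531, beside 47.6% of 13058. Genes are not independent of each other, so these shares carry no test.

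Whether the stage difference itself differed between the sets was tested as an interaction. The interaction of stage with Cre line passed in 0 of 13689 genes and that of stage with treatment in 0 of 13881 by edgeR, with 310 (2.26%) and 243 (1.75%) genes at an unadjusted p under 0.05. Egr2 had its largest stage estimate in saline D1, at 0.78 with a standard error of 0.22 and an adjusted p of 0.999 by edgeR. Its interaction with Cre line, saline D2 minus saline D1, was -0.41 with a standard error of 0.44, so a difference between the lines was not shown.

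Of those 543 genes, 32 also had an unadjusted p under 0.05 in ketamine D2 rats in the same direction (5.89%) and 4 in the opposite direction (0.737%), where 2.43% and 1.03% of all 13292 genes did. The 5 of the 32 that have a symbol were Lrrc8b, Zfp496, Gabra4, Rasd1 and Arhgap44, singled out after their values were seen. Rasd1, a small GTPase first found as a gene induced by dexamethasone, stood at 28.9, 27.6, 26.4, 26.8 and 29.3 CPM in saline proestrus and at 20.9, 19.9, 22.9, 29.6 and 27.3 CPM in saline diestrus. The groups overlapped, since library 31 of diestrus held the highest value of all 10 and library 39 lay within the proestrus range. The log2 fold change was 0.24 with a standard error of 0.10 in saline D2, 0.57 with a standard error of 0.10 in ketamine D2 and 0.02 in saline D1. Arhgap44, a GTPase-activating protein of dendritic spines, was 167 to 212 CPM in proestrus and 154 to 185 CPM in diestrus in saline rats (log2 fold change 0.14, standard error 0.06), with 0.14 in ketamine D2 and -0.05 in saline D1. Zfp496 had an estimate of 0.32 in both D2 sets and -0.01 in D1, and Gabra4 one of 0.14 in both D2 sets and 0.04 in D1.

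When the 19 D2 libraries, saline and ketamine, were put in 1 model with stage and treatment, an alternative added after the data were seen, 0 of 13881 genes passed, and the count at an unadjusted p under 0.05 was 1091. Rasd1 led the genes with a symbol (log2 fold change 0.41, standard error 0.08, adjusted p = 0.147 by edgeR), followed by Nrip1 (0.21, standard error 0.05, adjusted p = 0.281). The ketamine rats make up 9 of the 19.

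**Figure D5:**
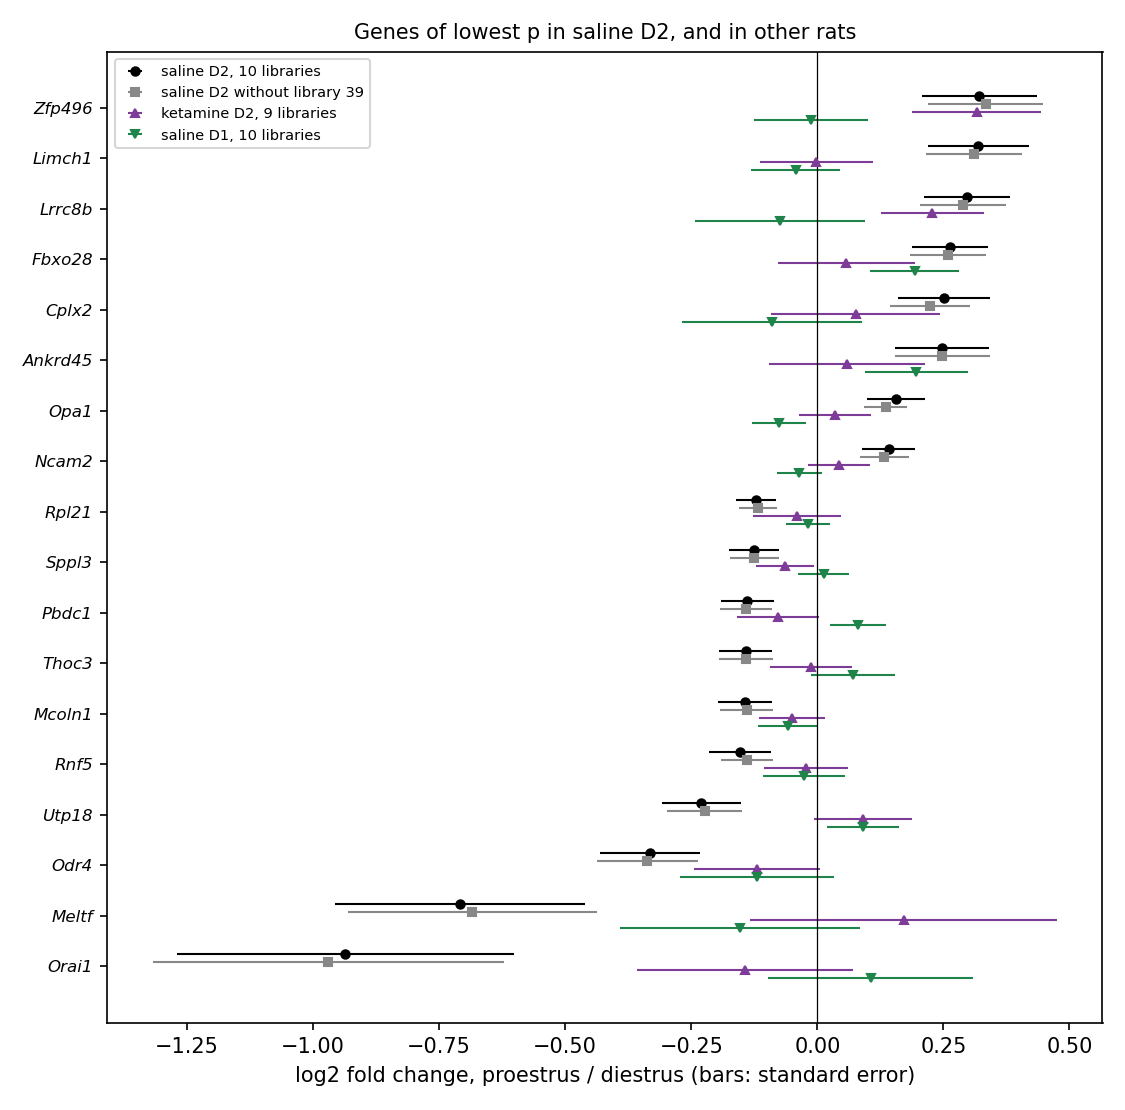
Log2 fold changes of proestrus over diestrus (x axis, bars are standard errors) for the 8 named genes of lowest p with higher and the 10 with lower values in saline D2 proestrus, in the saline D2 fit with and without library 39 and in 2 other sets of rats. The estimates with and without library 39 lie close together. This is in part built in, since the first surrogate variable of the fit with library 39 is carried by that library. Of the 18, 15 have the same sign in ketamine D2 and 7 in saline D1.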

How the data were processed

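Polyribosome-bound mRNA from NAc punches of single rats was sequenced by the authors. The deposited table holds estimated counts per Ensembl gene, which the authors made from Salmon quantification (1.10.2, after fastp 0.23.4 and FastQC 0.12.1, build mRatBN7.2, per the submitters' processing notes) and summed to genes with tximport. Transcript length offsets were not used here. All 39 columns were assigned to samples by title, leaving 0 unused. The deposited counts were whole numbers and were used without further rounding.

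Genes were kept by filterByExpr with a minimum count of 10, scaled by TMM and tested with edgeR 4.0.16 (glmQLFit and glmQLFTest, robust, R 4.3.3) on the 10 libraries with stage and 2 surrogate variables from sva 3.50.0. Benjamini-Hochberg adjusted p under 0.1 was the threshold. The interval of a fold change covers 95%. Saline D1, ketamine D2 and the interactions were fitted the same way. Single genes were also tested with a 2-sided exact permutation test of log2 CPM (prior count 2) over all 252 splits. The test was checked on simulated data, and no outcome of that check is reported here. Levels are CPM scaled by TMM over the 39 libraries.

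Symbols came from identifier and symbol pairs in the study's gene tables, so 8.2% of identifiers, not a random draw, have one. The comparison columns of those tables (fold changes and p-values) were not used. Named genes were the 10 genes with a symbol and lowest p in each direction, the tested steroid receptors, D2-MSN markers and immediate early genes, of every other list the members with unadjusted p under 0.05 and the 2 most abundant, and up to 2 unnamed identifiers in each direction. Some genes that this rule names are not reported here. Members and lists were chosen with earlier results of these data known, and some lists were built from the paired names. Sox9, Rgs5, Col1a1, Hsd17b11, Med13, Cox6a1, Atp5pf, Ulk2, Gap43, Rasd1, Arhgap44 and the genes low in libraries 7 and 21 lie outside that rule and were chosen after their values were seen. Alternatives were DESeq2 1.42.0, its size factors, other filters, 0 or 1 surrogate variable, a model of all 39 libraries and leaving out each library. The fits without libraries 7 and 21, without library 39 and surrogate variables, and of 19 D2 libraries were added after the data were seen.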

Additional observations from a re-analysis of the deposited data

Results flagged for a closer look

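In groups of 5, a value was singled out when its gap to the nearest other library exceeded 0.71 of the range of the group (Dixon's test at the 95% level). Of 180 groups checked over 89 named genes and the totals, 23 met this. The groups reuse the same 10 libraries and hold genes that vary together, so the count was not set against a rate expected by chance. Library 39 had 8 of the 23. Its total of 2396517 counts was the lowest, and it was the lowest of diestrus for ENSRNOG00000048109 (0 CPM), Rpl21 (123 CPM), Eif4g1 (377 CPM), Zfp365 (241 CPM) and Slc8a2 (207 CPM) and the highest for Fbxo28 (17.8 CPM) and Tmem119 (4.14 CPM).

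Library 7 stood highest of diestrus 5 times, for Col3a1 (14.2 CPM), S100b (123 CPM), Mog (15.5 CPM), Col11a2 (64.6 CPM) and Gja1 (53.0 CPM). Library 21 stood highest of proestrus 9 times, and 5 of the genes were the same: Col3a1 (7.24 CPM), S100b (126 CPM), Mog (16.1 CPM), Col11a2 (44.4 CPM) and Gja1 (44.4 CPM). Its other 4 were Limch1 (53.8 CPM), Tmem119 (2.48 CPM), Grin2c (17.4 CPM) and Flt1 (9.87 CPM). Library 23 was the highest of diestrus for Kl (10.9 CPM), which encodes klotho, a protein made by the choroid plexus.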

How the results depend on the processing

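No setting that kept the low-count filter called a gene by edgeR or DESeq2. Without the filter, 1 of 18161 genes passed (ENSRNOG00000068512, adjusted p = 0.0972 by edgeR), which had 77 counts in library 31 and 0 in the other 9. The count at an unadjusted p under 0.05, 545 as reported, was 336 with no surrogate variable, 318 by DESeq2 with none, 245 without libraries 7 and 21 and with 1 surrogate variable, and 1091 in the model of 19 D2 libraries, where ketamine rats enter. Leaving out each library in turn gave 256 to 985, with 862 without library 5, 835 without 29, 985 without 23, 256 without 21, 289 without 15 and 313 without 31. The cause was not tested. The 31 named genes with an unadjusted p under 0.05 kept their sign in all 709 alternative values, with a lowest adjusted p of 0.217. Of the other 58, 30 changed sign at least once, in 182 of 1327 values. The alternatives refit mostly the same libraries whose p-values split the genes, so this contrast follows largely from the split and is no support for the 31. The labels pair no rats, and no 2 libraries share a number. A block of 8 consecutive library numbers, each with 1 library of either stage, gave 0 calls, 538 genes at an unadjusted p under 0.05 and a lowest adjusted p of 0.171. Depth limits library 39 most, where 3 counts are 1.24 CPM.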

Other observations

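Some groups not described so far also held no gene that passed edgeR's test. Clock, a transcription factor of the circadian clock, was 53.7 to 57.2 CPM in proestrus and 43.9 to 58.3 CPM in diestrus (log2 fold change 0.12, standard error 0.07). Library 39 of diestrus lay within the narrow proestrus range and library 23 above it. Cacna1e, the pore of R-type calcium channels, was 18.2 to 31.1 CPM in proestrus and 13.1 to 28.9 CPM in diestrus (log2 fold change 0.32, standard error 0.23). Of 20 zinc finger genes 14 had positive estimates (median log2 0.04), and of 34 solute carriers 21 did (median 0.03, which was 0.01 without library 39, with 19 positive, and 0.01 without libraries 7 and 21). All 6 translation factors had negative estimates with 2 surrogate variables, with a median of -0.02, and 3 of the 6 did with none.

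Hsph1, a heat shock protein of the cytosol, had an estimate of 0.04 with a standard error of 0.05, and Calr, a chaperone of the endoplasmic reticulum, one of -0.04 with the same standard error. Mx2, an interferon-induced gene, ranged from 4.25 to 13.1 CPM in proestrus and from 3.31 to 12.1 CPM in diestrus, so that rats of the same stage differed more than the stage means did. Dlg3, of the postsynaptic density, had an estimate of 0.05 with an interval within 1.5-fold. Fold differences of that size or larger in genes above 10 CPM lie outside most intervals here, and for genes below 1 CPM these libraries say little.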
